A study of Mus musculus with 5 samples.

Results

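Histone genes were followed in leukocytes from mouse lung. The rows were chosen by symbol, as those beginning with Hist1h to Hist4h, H1f, H2af, H3f3, H1fx, H2ac, H2bc, H3c or H4c, and 39 of the 14462 rows of the deposited table matched. Of these, 34 were replication-dependent histone genes, 4 were variant histone genes (H1f0, H1f10, H3f3a and H3f3b) and 1, H3f3aos, was an RNA annotated antisense to H3f3a. The table used current symbols, so H2A and centromeric variants named H2ax, H2az1, Macroh2a1 and the like did not match. The 7 such rows, 1 of them a pseudogene, are described only for comparison. The cells came from lungs of mice with tumours labelled MC38/MC38 (MC38 is a mouse colon adenocarcinoma line). Lungs were taken 3 days after irradiation of MC38 tumours, and cells were sorted for CD45, a surface protein of nearly all leukocytes. By their treatment label 2 libraries were IR and 3 were ctrl; the shared protocol text speaks of irradiation without setting ctrl apart. The labels give no genotype, strain, age, radiation dose or pooling, and do not say whether libraries came from separate animals, so the p-values measure the spread between these libraries, which may be technical. All libraries were made from total RNA with a stranded low-input kit, so messages without a poly(A) tail could be captured.

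Replication-dependent histone genes lie in clusters and are transcribed mainly in S phase, when new DNA must be packaged. Their messages are unusual in ending not in a poly(A) tail but in a short stem-loop, which the stem-loop binding protein Slbp holds during processing, export and translation. The core histones H2A, H2B, H3 and H4 form the nucleosome, and the linker histone H1 binds the DNA that enters and leaves it. Variant histones such as H3.3 are made throughout the cell cycle from polyadenylated messages. H3.3, the product of H3f3a and H3f3b, replaces H3 in active chromatin, also of cells that do not divide.

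The stem-loop is shown because most replication-dependent messages carry it and few others do. It was searched as the 16-base histone stem-loop consensus, which opens with GG, closes with CC and has arms of 6 bases that were required to pair. The search ran on the message strand, after the stop codon of GENCODE vM21 transcripts (GRCm38, the assembly of mm10). Of the 34 replication-dependent rows 32 were matched to that annotation, 26 had an annotated 3′ end of at least 16 bases, and 21 of those held the motif, starting 22 to 41 bases after the stop codon. The other 5 were H1f1, H2bc4, H2bc21, H3c13 and H4c1, in whose annotated 3′ ends these letters were not found. Those of H3c13 and H1f1 are 37 and 48 bases long, so a stem-loop at the later start positions would run past them. In the annotated 3′ ends of the 4 variant rows the motif was not found. Among all 20966 protein-coding symbols with such a 3′ end, 61 (0.291%) held it. Capitals mark the stem-loop in examples from each class, of which H2ax is a variant outside the symbol rule that carries it.
H1f2: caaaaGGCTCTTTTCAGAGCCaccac
H1f3: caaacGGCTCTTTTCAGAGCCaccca
H2ac6: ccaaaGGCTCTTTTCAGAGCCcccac
H2bc8: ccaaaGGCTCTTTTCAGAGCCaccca
H3c6: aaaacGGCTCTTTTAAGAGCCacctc
H4c3: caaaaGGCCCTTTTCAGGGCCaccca
H2ax: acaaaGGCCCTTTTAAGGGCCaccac
The stem read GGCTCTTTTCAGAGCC in 11 of the 21 rows, and the arms with a further C-G pair (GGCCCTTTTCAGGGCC or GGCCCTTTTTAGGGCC) were in the H4 rows H4c3, H4c4, H4c8, H4c9 and H4c14. In 13 of the 21 rows the annotated transcript ran more than 100 bases past the stem-loop, among them H1f2 (840 bases) and H2ac6 (2010 bases).

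Values are read counts that the authors had scaled between libraries. The library totals were 7232126 to 7425923 in ctrl and 7544034 and 8414753 in IR, and the smallest value above 0 was 0.7 to 0.9 per library, so a value of 10 stands for roughly that many reads. No count was available from which to derive counting error. In what follows, levels are given in the order ctrl replicates 1, 2 and 3, then IR replicates 1 and 2.

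Linker H1 rows held most of the counted replication-dependent histone signal in every library. Most replication-dependent rows had negative log2 fold changes (IR minus ctrl), while the 4 variant rows did not. No single row passed the test. Of the 34 replication-dependent rows 32 passed the filter on low values, and limma called 0 of them at an adjusted p under 0.05, against 1.50% of all 12777 genes tested (192 genes, 146 higher and 46 lower). The smallest adjusted p was 0.180, for H1f3. At an unadjusted p under 0.05 there were 8 of 32 (25%), 1 higher and 7 lower, against 15.0% of all genes, with 7.76% higher and 7.20% lower. The IR and ctrl values did not overlap in 8 rows (25%), 7 of them lower in IR. Over all genes the share was 31.5% (15.2% higher and 16.3% lower), so separated groups were no more frequent here. The log2 fold change was negative in 25 of 32 rows (78.1%), against 53.2% of all genes, and its median was -0.53, against -0.05. Among the 25 were H3c13, H3c2 and H4c9, which passed the filter through ctrl libraries alone, so that the filter largely set their direction. A count without such rows, added after the data were seen, was 22 of 29 (75.9%), against 51.6% of all genes. Among the 12 rows with a mean of at least 100 over all libraries it was negative in 10, with a median of -0.50. The rows come from the same libraries and are not independent. Their median deviation from the ctrl mean in log2 was 0.23, -0.44 and 0.20 in ctrl and -0.31 and -0.68 in IR. Ctrl replicate 2 thus lay below IR replicate 1, and by library the groups overlapped. All 4 variant rows passed the filter, limma called 0 and had 0 at an unadjusted p under 0.05, and their log2 fold changes ran from 0.09 to 0.32 (median 0.20). Scaling to library totals lowered the median of all genes by 0.12 on the log2 scale. Relative to that median the replication-dependent rows lay at -0.48 under both scalings and the variant rows at 0.26. That scaling gave 143 higher genes among 259 called (55.2% higher, against 76.0%), and again called no histone row.

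**Figure D1:**
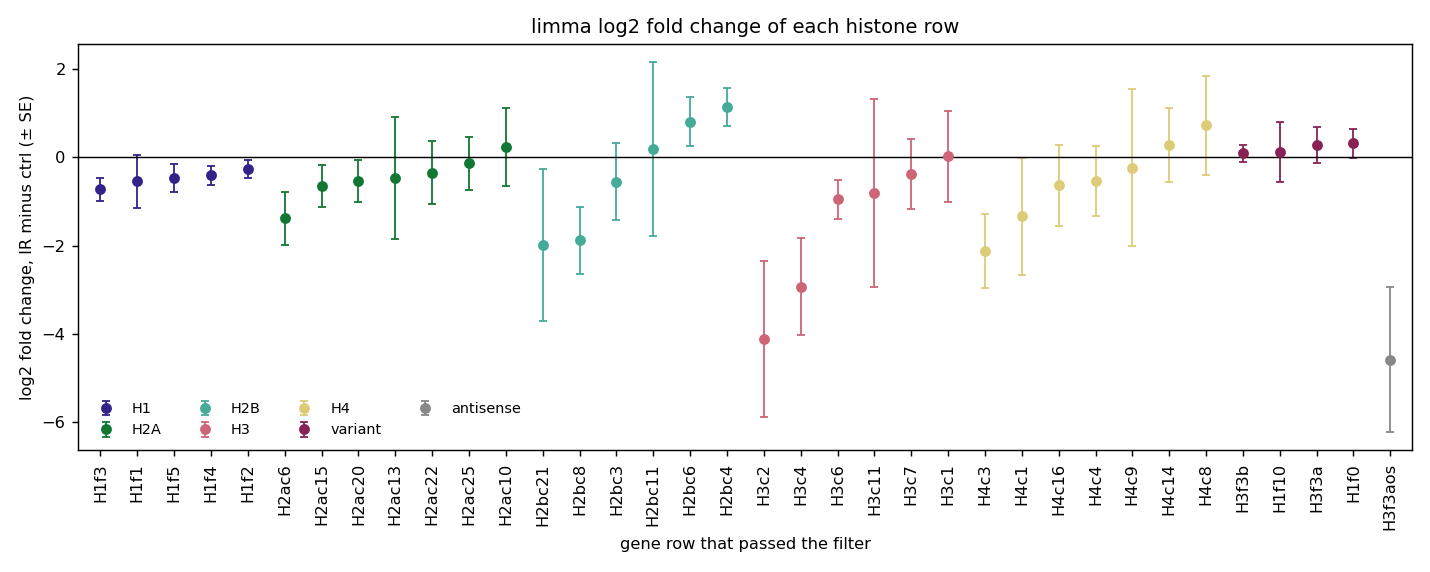
limma log2 fold change (IR minus ctrl, ± SE) of the histone rows that passed the filter, ordered within class and coloured by class. All 5 linker H1 rows lie below 0 (the error bar of H1f1 crosses it). All 4 variant rows lie just above 0, and the error bar of each crosses it (H3f3b is at -0.03 after scaling to library totals). Several low core histone rows have wide errors. H3c13, listed at 0 in both IR libraries, is not drawn.

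The summed level of the 34 replication-dependent rows was 17947, 11563 and 16907 in ctrl and 12310 and 12011 in IR. The ctrl mean was 15472 ± 3425 (SD, n = 3) and the IR mean 12161 ± 212 (SD, n = 2), which is 0.786 of ctrl. Ctrl replicate 2 lay below both IR libraries, so the sums overlapped, and ctrl replicates 1 and 3 stood above all others. As a share of the library total the sum was 0.248%, 0.158% and 0.228% in ctrl and 0.163% and 0.143% in IR. The 4 variant rows summed to 5324, 4459 and 5513 in ctrl and to 4598 and 6450 in IR, and these ranges overlapped as well. The replication-dependent sum was 3.37, 2.59 and 3.07 times the variant sum in ctrl and 2.68 and 1.86 times in IR. Bulk libraries cannot tell fewer dividing cells from less histone RNA per cell.

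**Figure D2:**
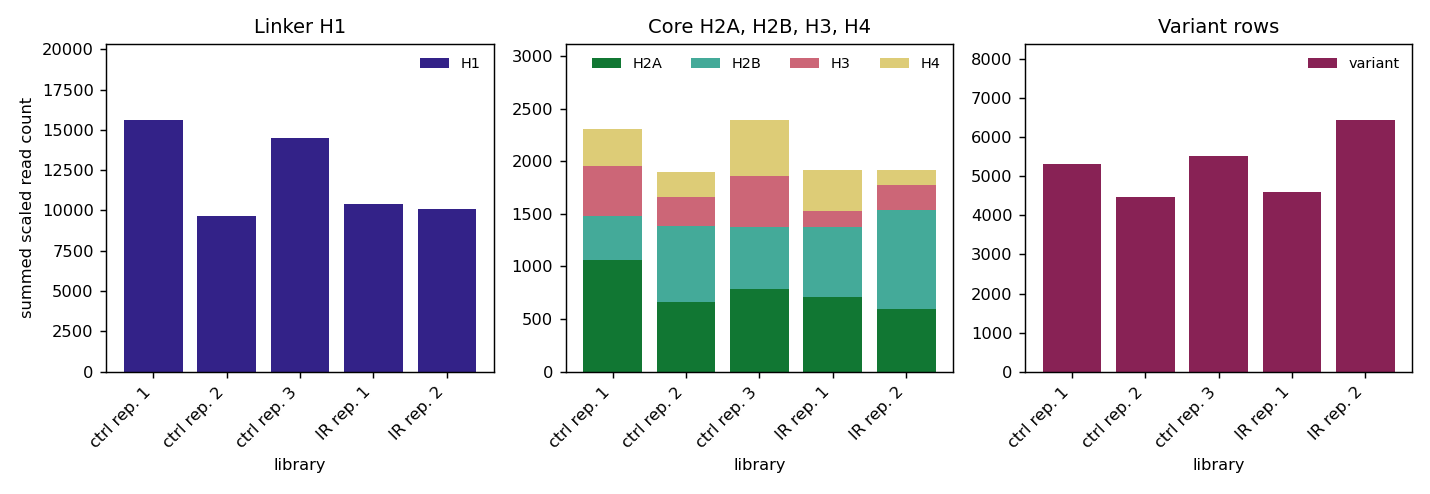
Summed scaled read counts of linker H1 (left), the core classes H2A, H2B, H3 and H4 stacked (middle) and the 4 variant rows (right) in each library; the vertical scales differ. Ctrl replicate 2 has the lowest linker H1 sum, and the H3 segment is thinnest in the IR libraries.

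Linker histones compact chromatin, and mouse somatic cells carry several subtypes from separate genes. The 5 replication-dependent H1 rows made up 83.6% to 87.1% of the replication-dependent sum in each library. Of their 50-base windows 0.0% (H1f1 and H1f5) to 32.0% (H1f4) recur in transcripts of other genes. In the matched core rows the shares ran from 0.0% (H2bc21) to 90.1% (H2ac13). How shared reads were counted is not stated, and its part in the H1 share was not tested. All 5 H1 rows passed the filter and had negative log2 fold changes, with a median of -0.46. H1f2 (older symbol Hist1h1c, chromosome 13, 23738808 to 23740367) encodes the subtype H1.2. Its level was 8769, 5483 and 8226 in ctrl and 5878 and 6430 in IR. Both IR values lay inside the ctrl range, and the log2 difference was -0.26 with an SE of 0.20 (limma, adjusted p = 0.590). H1f2 alone held 56.1% to 63.7% of the H1 sum. H1f4 (Hist1h1e, chromosome 13, 23620629 to 23622558), which encodes H1.4, was 4572, 2995 and 4508 in ctrl and 3457 and 2569 in IR. Its groups overlapped through ctrl replicate 2, and limma gave -0.41 ± 0.21 in log2 (SE, adjusted p = 0.372). H1f3 (Hist1h1d, chromosome 13, 23553262 to 23560686), which encodes H1.3, was 1739, 826 and 1233 in ctrl and 737 and 730 in IR. Both IR libraries lay below all ctrl libraries, and the log2 difference was -0.72 with an SE of 0.26 (limma, adjusted p = 0.180), or -0.46 without ctrl replicate 1. H1f5, the gene of H1.5, was 455, 304 and 411 in ctrl and 245 and 317 in IR, with a log2 fold change of -0.46. The lowest row, H1f1, lay between 52.1 and 133.6 in all libraries. The order H1f2, H1f4, H1f3, H1f5, H1f1 held in each library. Divided by the length up to the stem-loop's end, mean levels over all libraries were 9663 per kilobase for H1f2 and 4659 for H1f4. Any reads past the stem-loop are included, so these are upper limits for that stretch. Per kilobase of the full annotated model the mean levels were 4460 and 1876, against 1538 for the variant H3f3b. H1f4 shares 496 exon bases on the same strand with the long annotated model of H2bc6, so reads there could be assigned to either row or to none.

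**Figure D3:**
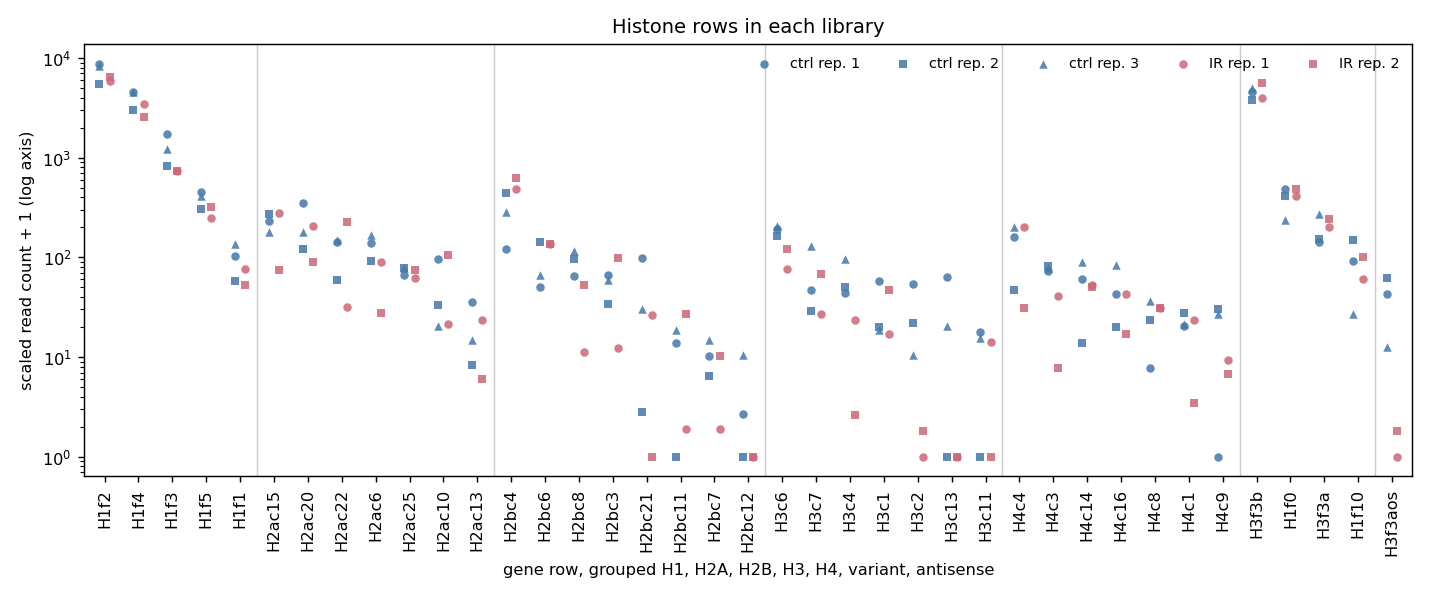
Level of each of the 39 histone rows in each library (scaled read count + 1, logarithmic axis), ordered by class and by mean; blue points are ctrl and red points IR, with marker shape giving the replicate. H1f2, H1f4 and H3f3b are the highest rows, with no library under 2568.7, and the core histone rows lie far lower.

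Of the 5 replication-dependent classes, H3 alone had summed levels that did not overlap between the groups. Such a separation was also seen in 31.5% of all single genes tested (16.3% lower in IR). The H3 sum was 471, 280 and 488 in ctrl and 152 and 237 in IR, with both IR libraries below all ctrl libraries. As a share of the replication-dependent sum H3 held 2.62%, 2.43% and 2.89% in ctrl and 1.24% and 1.97% in IR. All 7 rows passed the filter, H3c2 and H3c13 through ctrl libraries alone, so the filter largely set their direction. Both are also part of the H3 sum. Of the other 5, 4 had negative log2 fold changes, with a median of -0.80 (-0.95 over all 7). The groups did not overlap in H3c6 and H3c4, both lower in IR, nor in H3c2. H3c6 (Hist1h3e, chromosome 13, 23561534 to 23562369) held 40.9% to 58% of the H3 sum. Its level was 193, 163 and 203 in ctrl and 74.8 and 121 in IR, which limma put at -0.95 ± 0.45 in log2 (SE, adjusted p = 0.316). H3c4 (Hist1h3d, chromosome 13, 23575763 to 23577011) was 43.1, 49.3 and 94.4 in ctrl and 22.4 and 1.6 in IR, for a log2 difference of -2.93 with an SE of 1.10 (limma, adjusted p = 0.196). H3c2 (Hist1h3b, chromosome 13, 23752267 to 23752886) was 53.3, 21 and 9.4 in ctrl and listed at 0 and at 0.8 in IR. The IR value above 0 is worth about 1 read, and the row passed the filter through ctrl libraries alone, so its fold change (limma log2 -4.11 ± 1.77 SE, adjusted p = 0.274) follows the pseudocount. H3c13, at 62.7, 0 and 19.7 in ctrl, was listed at 0 in both IR libraries and in ctrl replicate 2. H3c7 and H3c1 had overlapping groups. H3c7 was 45.6, 28.3 and 129 in ctrl and 26.2 and 67.3 in IR, and H3c1 was 56.7, 19.2 and 17.5 in ctrl and 15.9 and 46.3 in IR. The last row, H3c11, did not exceed 16.9. Of the 50-base windows of H3c6, 73.4% also occur in transcripts of other genes, and for H3c2 and H3c4 the shares are 60.4% and 24.8%, so reads of these rows are partly exchangeable with those of other H3 genes.

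H2A and H2B genes often stand head to head in pairs, and in the table there were 2 such pairs with both partners. The H2A sum was 1060, 659 and 785 in ctrl and 706 and 599 in IR, and the H2B sum was 418, 722 and 589 in ctrl and 666 and 937 in IR. H2bc4 was the H2B row with the highest level in every library. The gene (older symbol Hist1h2bc, chromosome 13, 23684199 to 23692908) was 119, 446 and 281 in ctrl and 481 and 618 in IR. It held 28.5% of the H2B sum in ctrl replicate 1 and 72.2% in IR replicate 1. Of its 50-base windows 30.1% recur in transcripts of other genes, 100 genes in all. In its annotated 3′ end of 742 bases the stem-loop was not found. Both IR libraries lay above all ctrl libraries, and limma gave 1.14 ± 0.44 in log2 (SE, adjusted p = 0.232), or 0.62 without ctrl replicate 1. It was the replication-dependent row with the highest log2 fold change and the only one whose IR values lay wholly above ctrl. Without it the other 7 H2B rows summed to 299, 276 and 308 in ctrl and 185 and 320 in IR.

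H2ac6 (Hist1h2ac, chromosome 13, 23681467 to 23683948), the H2A partner of H2bc4 on the opposite strand, lay in the other direction. It was 139, 91.3 and 168 in ctrl and 87.9 and 26.9 in IR, all ctrl libraries above both IR libraries, which limma put at -1.38 ± 0.60 in log2 (SE, adjusted p = 0.277). The ratio of H2bc4 to H2ac6 was 0.859, 4.88 and 1.67 in ctrl and 5.47 and 23 in IR. The annotated starts of the pair are 250 bases apart. The RefSeq promoter window of H2ac6 (GRCm38.p6, chr13:23683910-23684209, minus strand) spans that gap and is printed because both genes start from it. Capitals mark matches to CCAAT, to TATAAA and to the octamer ATTTGCAT on either strand, none of which overlap.
H2ac6 promoter: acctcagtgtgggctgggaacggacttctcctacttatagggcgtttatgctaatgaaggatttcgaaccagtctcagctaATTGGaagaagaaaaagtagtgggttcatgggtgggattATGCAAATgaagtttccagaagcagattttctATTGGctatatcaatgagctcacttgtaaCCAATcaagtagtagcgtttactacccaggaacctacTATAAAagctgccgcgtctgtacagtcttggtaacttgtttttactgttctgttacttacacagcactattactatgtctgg
The window holds CCAAT once in the direction of H2ac6 and 2 times on the other strand, TATAAA once in the direction of H2ac6, and the octamer once on the other strand. The octamer is known as an element of H2B promoters. Of the 27 promoter windows matched to replication-dependent rows, 92.6% held CCAAT and 66.7% TATAAA on either strand, against 37.9% and 14.2% of all 27025 windows. The octamer was in 3 of 6 H2B and 2 of 6 H2A windows and in 1.8% of all. AAACACA, an element known from H1 promoters, was in 4 of 5 H1 windows (all but H1f1) and in 7.1% of all. In the 4 variant windows CCAAT was in 2 and each other motif in 1. These are letter matches in a window of 300 bases and not measured binding.

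**Figure D4:**
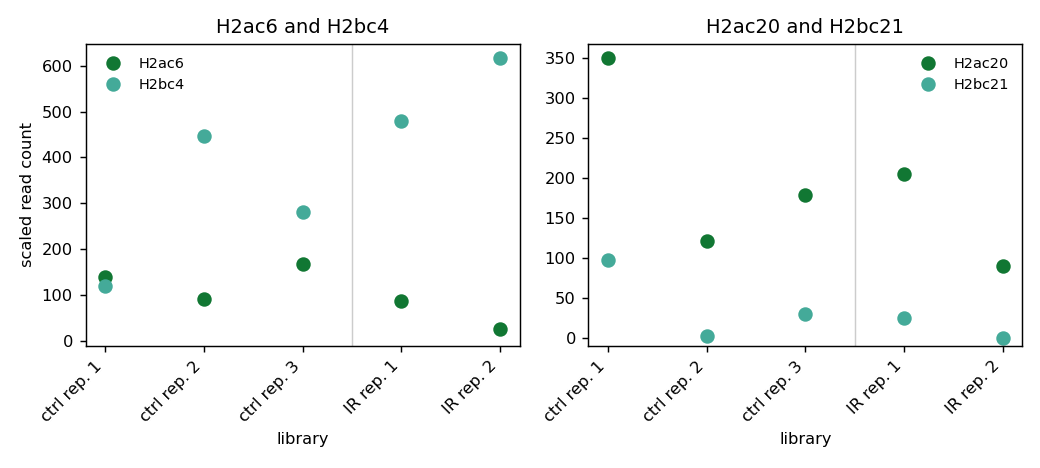
Scaled read counts of the 2 head-to-head H2A and H2B pairs in each library (linear axes; the vertical line separates ctrl from IR). H2bc4 is above H2ac6 in every library but ctrl replicate 1 and is highest where H2ac6 is lowest, while H2bc21 stays below H2ac20 in all 5 libraries.

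The second pair, H2ac20 and H2bc21 on chromosome 3, showed no such crossing. H2ac20 was 350, 122 and 178 in ctrl and 205 and 89.1 in IR, with a log2 fold change of -0.54 (limma adjusted p = 0.646), and H2bc21 did not exceed 97.3 and was listed at 0 in IR replicate 2. H2ac15, the H2A row with the highest mean, was 232, 271 and 180 in ctrl and 278 and 73.1 in IR. H2ac22 was 143, 58.4 and 148 in ctrl and 30.8 and 226 in IR. In both the IR libraries differed from each other by more than the range of ctrl, and the log2 fold changes of -0.65 and -0.35 had adjusted p-values of 0.552 and 0.863 (limma). Among the other H2B rows, H2bc6 was 49.8, 141 and 64.9 in ctrl and 137 and 135 in IR, with ctrl replicate 2 above both IR libraries. H2bc8 was 63.4, 95.0 and 115 in ctrl and 10.3 and 51.3 in IR, lower without overlap, for a log2 difference of -1.88 with an SE of 0.76 (limma, adjusted p = 0.238). H2bc3 was 65.1, 32.9 and 58.4 in ctrl and 11.2 and 98.4 in IR, so its IR libraries lay on either side of ctrl. The H2A rows H2ac10, H2ac13 and H2ac25 and the H2B row H2bc11 did not exceed 105.1 in any library and had overlapping groups, and H2bc7 and H2bc12 did not pass the filter.

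The H4 rows had low levels and wide spread. Their sum was 361, 237 and 533 in ctrl and 396 and 141 in IR, with IR replicate 1 inside the ctrl range. H4c3 (Hist1h4c, chromosome 13, 23697635 to 23698454) was the one H4 row whose groups did not overlap. It was 71.8, 80.4 and 78.1 in ctrl and 40.2 and 6.7 in IR, which limma put at -2.13 ± 0.84 in log2 (SE, adjusted p = 0.225). H4c4 was 161, 45.7 and 200 in ctrl and 202 and 30.2 in IR. H4c14 was 60.0, 12.8 and 89.8 in ctrl and 51.4 and 49.6 in IR, and H4c16 was 42.2, 19.2 and 83.3 in ctrl and 42.1 and 15.9 in IR. The groups of these 3 rows overlapped, with limma adjusted p-values of 0.805, 0.911 and 0.794. H4c1, H4c8 and H4c9 did not exceed 35.2 in any library. H4 genes encode an almost invariant protein, but the shares of 50-base windows that recur in other genes differed widely, from 1.0% for H4c14 to 45.8% for H4c8.

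Several of these values rest on 1 library. Without IR replicate 1, which leaves IR replicate 2 as the only irradiated library, limma called 4 replication-dependent rows, all lower. Their values in that setting were, for H2ac15 (log2 fold change -1.61, adjusted p = 0.0380), H2ac6 (-2.22, 0.0334), H3c4 (-4.52, 0.0128) and H4c3 (-3.34, 0.0183). In that setting 1006 of all genes were called, and the lone library is assumed to vary like the others. Without IR replicate 2 the same rows moved the other way, H2ac15 to 0.31, H2ac6 to -0.54, H3c4 to -1.35 and H4c3 to -0.92, none of them called. H2bc8 was at -0.77 without IR replicate 1 and at -2.98 without IR replicate 2, and H3c6 at -0.61 without IR replicate 1. Ctrl replicate 2 stood low among the controls. Without it the median log2 fold change of the replication-dependent rows was -0.88, against -0.32 without ctrl replicate 1, -0.29 without ctrl replicate 3 and -0.31 without IR replicate 2.

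Variant histone rows were led by H3f3b, a gene of H3.3 (chromosome 11, 116021912 to 116027962). Its level was 4602, 3752 and 4983 in ctrl and 3926 and 5623 in IR, 84.1% to 90.4% of the variant sum. IR replicate 1 lay within the ctrl range and IR replicate 2 above it, and the log2 difference was 0.09 with an SE of 0.20 (limma, adjusted p = 0.876) and -0.03 after scaling to library totals. H3f3a (chromosome 1, 180800832 to 180813943), which encodes the same protein, was 142, 152 and 269 in ctrl and 200 and 240 in IR (log2 0.28 ± 0.40 SE by limma, adjusted p = 0.788). Its transcripts share 50-base windows with 132 other annotated genes, and 12.3% of its windows are so shared, so reads there could be assigned to any of them or to none. H1f0, the linker histone H1.0 of differentiated and resting cells, was 489, 407 and 234 in ctrl and 412 and 488 in IR (0.32 ± 0.32 SE, adjusted p = 0.689). H1f10, the linker variant H1X, was 91.3, 148 and 26.2 in ctrl and 59.8 and 100.1 in IR (0.12 ± 0.68 SE, adjusted p = 0.954). In none of the 4 did the groups separate.

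H3f3aos, the antisense row (chromosome 1, 180813776 to 180816859), had the lowest log2 fold change of the 37 rows that passed the filter. It was 42.3, 60.4 and 11.6 in ctrl and listed at 0 and at 0.8 in IR, so that all ctrl libraries lay above both IR libraries. The limma log2 fold change was -4.59 ± 1.64 (SE; adjusted p = 0.177) and, as for H3c2, the row passed the filter through ctrl alone. It overlaps 160 exon bases of H3f3a on the opposite strand. H3f3a itself had overlapping groups, as given above. The kit keeps strand, but the labels do not give the strand setting of the counting, so reads in the overlap cannot be assigned with certainty.

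Of the 7 other variant rows, 6 passed the filter, limma called 0 with 0 at an unadjusted p under 0.05, and in 0 the groups separated. Of these 6, 2 had negative log2 fold changes, and the median was 0.07. The row that did not pass, Macroh2a3, is annotated as a processed pseudogene. The 7 rows were chosen after the symbols of the table had been seen. Macroh2a1, a large H2A variant with an added domain, was 1852, 2033 and 1806 in ctrl and 1841 and 2137 in IR. H2ax, whose protein is phosphorylated at DNA breaks and whose message holds the stem-loop shown above, was 285, 182 and 339 in ctrl and 344 and 220 in IR (log2 0.08 ± 0.36 SE by limma, adjusted p = 0.942). H2aj was 352, 274 and 407 in ctrl and 427 and 364 in IR. H2az1 lay between 17.7 and 63.1 and H2az2 between 93.3 and 212. Cenpa, the centromeric H3, was 114, 220 and 154 in ctrl and 118 and 62.2 in IR, for a log2 difference of -0.87 with an SE of 0.50 (limma, adjusted p = 0.420).

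Among genes that make, process and carry histones, Nasp fell. Nasp encodes a chaperone that keeps a soluble reserve of H3 and H4. It was 696, 724 and 661 in ctrl and 331 and 285 in IR, which limma put at -1.17 ± 0.26 in log2 (SE, adjusted p = 0.0250). All ctrl values were above both IR values. Nasp did not pass without ctrl replicate 1 (adjusted p = 0.159), ctrl replicate 2 (0.117), ctrl replicate 3 (0.111) or IR replicate 2 (0.0878), although its log2 fold change stayed between -1.28 and -1.06. It was the only one of 30 chaperone genes called, against 1.50% of all genes. At an unadjusted p under 0.05, 6 of the 30 were lower and 1 higher, against 7.20% and 7.76% of all genes (limma). Of the 30, 24 had negative log2 fold changes, against 53.2% of all genes, and the median was -0.25. Of 16 tested genes for histone transcription and 3′ end formation, among them the cleavage factor Cpsf3 (0.28, limma adjusted p = 0.605) and the RNA effector Srrt (-0.24, 0.688), 0 were called by limma and 1 had an unadjusted p under 0.05, with a median of -0.17. Of 7 genes of histone mRNA decay, limma called 0, with 0 at an unadjusted p under 0.05, and the median was 0.01. Upf1, a helicase needed for that decay, was at 0.23 (limma adjusted p = 0.659), and Tut7, which adds uridines to the message, at 0.07 (0.916).

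S phase genes were compared because replication-dependent histone messages normally accumulate with them. Of 24 DNA replication genes limma called 0, and the median was -0.41. At an unadjusted p under 0.05 there were 2, both lower, against 7.20% of all genes lower. Their summed level was 3945 to 4309 in ctrl and 3340 to 3556 in IR. By median deviation from the ctrl mean the groups overlapped, with ctrl at 0.14, -0.20 and 0.20 and IR at -0.03 and -0.22. Mcm3, a subunit of the replicative helicase, was 826, 613 and 564 in ctrl and 377 and 423 in IR (log2 -0.72 ± 0.27 SE by limma, adjusted p = 0.190), and Mcm6, another subunit, had overlapping groups (0.09, 0.920). Of 19 mitosis genes tested limma called 0, with 0 at an unadjusted p under 0.05, and the summed level was 1705 to 1781 in ctrl and 1462 to 1505 in IR. The median deviations overlapped here too (0.20, 0.09 and 0.12 in ctrl, 0.17 and -0.41 in IR). The proliferation marker Mki67 had a log2 fold change of -0.24 (limma adjusted p = 0.707) and the topoisomerase Top2a of -0.59 (0.410).

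Markers of several cell types moved with the groups. Over all genes, limma called 1.14% higher and 0.360% lower, with 7.76% higher and 7.20% lower at an unadjusted p under 0.05. Of 13 neutrophil markers all 13 were higher at an unadjusted p under 0.05 (limma). Their sum was 34036 to 59831 in ctrl and 82349 to 160226 in IR. Limma called 6, all higher. Csf3r, Cxcr2, Mmp8 and Retnlg were among them (log2 fold changes 1.28, 1.66, 1.40 and 1.55; limma adjusted p = 0.0152, 0.0202, 0.00306 and 0.0250). Of 12 T cell markers 2 were called, both lower, among them Cd3g (-1.21; limma adjusted p = 0.0250). Lower at an unadjusted p under 0.05 were 10 of the 12 (limma). The T cell sum was 8054 to 9528 in ctrl and 4916 to 5668 in IR. Of 10 B cell markers Ebf1 alone was called (-1.11; limma adjusted p = 0.0152), and the sum was 8465 to 13601 in ctrl and 6747 to 8079 in IR. Among the 10 B cell markers, 6 were lower at an unadjusted p under 0.05 (limma). Within ctrl, the B cell sum was lowest in replicate 2, as was the linker H1 sum. The median deviation from the mean of ctrl in ctrl replicates 1, 2 and 3 and IR replicates 1 and 2 was 0.17, -0.44, 0.25, -0.48 and -0.85 for B cell markers. For replication-dependent histones it was 0.23, -0.44, 0.20, -0.31 and -0.68. Ctrl replicate 2 was likewise the lowest ctrl library for the DNA replication list (given above) and for the histone transcription and 3′ end list (0.16, -0.13, 0.06, -0.01 and -0.19). That library was also lowest within ctrl for platelet and erythroid markers (-1.27, against -0.07 and 1.27), mitosis genes and pan-leukocyte genes. By median deviation ctrl replicate 2 was not lowest for neutrophil, T cell, alveolar macrophage or lung epithelium markers, nor for the chaperone and mRNA decay lists. By sum, however, it was the lowest ctrl library for T cell markers too (9528, 8054 and 8586 in ctrl). Of 11 alveolar macrophage markers limma called 0 with 5 lower at an unadjusted p under 0.05, and the sum was 13822 to 14738 in ctrl and 12794 to 13451 in IR. Chil3 was at 0.18 and Mrc1 at -0.39 in log2. Of 10 lung epithelium markers, cells that the sort should remove, Scgb1a1 alone was called (1.84; limma adjusted p = 0.00306), and the sum was 22493 to 26448 in ctrl and 54656 to 113925 in IR. In limma, 3 of the 10 were higher and 1 lower at an unadjusted p under 0.05. Scgb1a1 made up most of the epithelium sum. The other 9 markers summed to 6099, 3333 and 3165 in ctrl and 9953 and 3667 in IR, which overlapped. Of 6 platelet and erythroid markers tested limma called 0, with 0 at an unadjusted p under 0.05. Hbb-bs was at 0.28 and Alas2 at 0.30 in log2, and the sums overlapped. Of the 4 pan-leukocyte genes limma called 0, with 1 higher at an unadjusted p under 0.05. They included Ptprc, which encodes CD45, at 0.47 (limma adjusted p = 0.226), and Laptm5 at 0.18 (0.686). With 1 library left out these calls were not stable, although no sign turned among them. Csf3r, Mmp8 and Retnlg lost theirs when either of the first 2 ctrl replicates or IR replicate 2 was omitted, and Cxcr2 without IR replicate 2 (limma adjusted p = 0.115). Ebf1 lost its call without ctrl replicate 1 or 3, and Cd3g without any library but IR replicate 1. With array weights Cxcr2 (0.0772) and Retnlg (0.437) lost theirs too. Scgb1a1 kept its call with each library left out but not after scaling to library totals (0.0761). No marker on these lists that was in the table stood at 0 in all libraries. The part of cell makeup in the histone values was not tested.

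**Figure D5:**
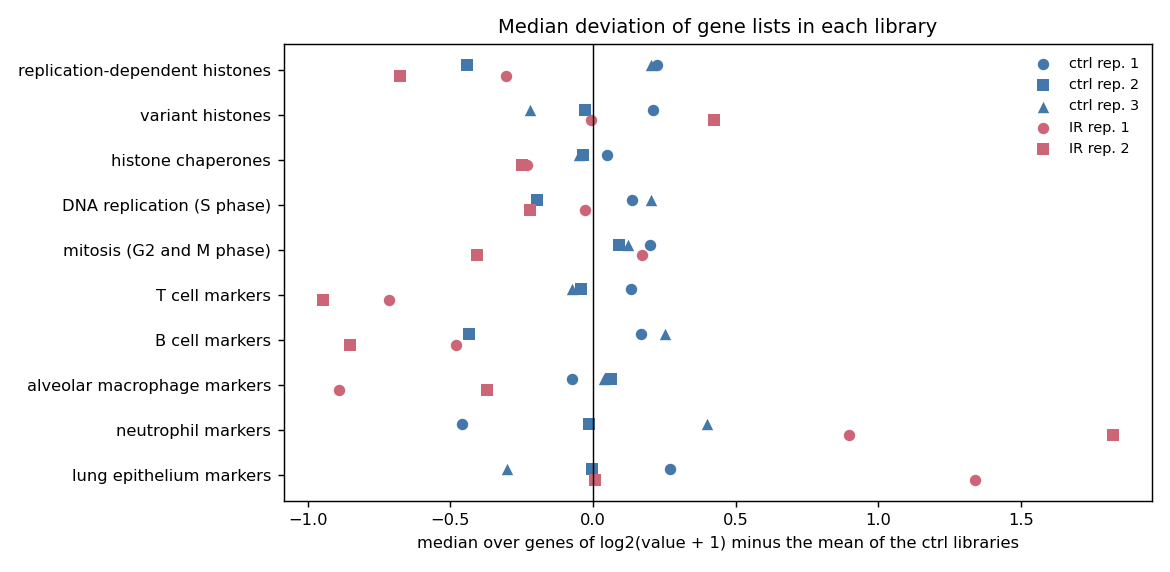
Median over genes of log2(value + 1) minus the mean of the ctrl libraries, for histone classes and gene lists (rows) in each library (blue ctrl, red IR). Replication-dependent histones and B cell markers are low in ctrl replicate 2 and in both IR libraries, and neutrophil markers are high in IR, most of all in IR replicate 2.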

How the data were processed

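RNA from CD45-sorted mouse lung cells (3 ctrl and 2 IR libraries, grouped by the treatment label) was analysed from 1 deposited table of signal values per gene. These are read counts with 1 decimal that the authors had scaled; how is not stated in the labels. HISAT2, HTSeq and mm10 are named, without role, per the submitters' processing notes. A gene entered the test if 2 or more libraries reached 10. The fit, on log2(value + 1), which understates changes of low genes, used limma 3.58.1 in R 4.3.3 with statmod 1.5.0, a mean trend and robust estimation. P-values are two-sided, with Benjamini-Hochberg adjustment over all 12777 genes kept, called under 0.05. The procedure was tested on simulated data. The members and lists were chosen with earlier results of these data known. The design was written for older histone symbols, so classes were assigned through current symbols, H1f1 to H1f5 counting as replication-dependent. Named genes (26 histone rows and 23 list genes) were those called, the 4 highest means per class, the 5 highest and 5 lowest fold changes without overlap, and up to 4 called, or otherwise the 2 most abundant, per list. One list gene is not reported here. Annotation and transcripts were GENCODE vM21 and promoters RefSeq. H2ac25 and H4c16 matched no annotated gene. Alternatives covered scaling, pseudocount, filter, robust estimation, array weights and each library left out.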

Additional observations from a re-analysis of the deposited data

How the results depend on the processing

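In 12 of the 13 alternatives limma called 0 replication-dependent rows; leaving out each library gave 0 to 4, the 4 without IR replicate 1. No alternative called a variant row. The count of all genes called was 314 with a pseudocount of 10 and 19 to 1006 with a library left out. The median log2 fold change of replication-dependent rows stayed negative throughout (-0.88 to -0.29 with a library left out), and that of the variant rows ran from -0.007 to 0.425, with 0.425 without IR replicate 1. Signs turned after scaling to library totals for H3c1 (-0.10), H3f3b (-0.031), Mcm6 (-0.036) and Tut7 (-0.056), and with array weights for Alas2 (-0.13), H4c14 (-0.20) and Hbb-bs (-0.31). With a library left out, signs turned for genes whose log2 fold changes then ranged as follows. H1f10 lay from -0.58 to 0.65, H2ac15 from -1.61 to 0.31, H2ac20 from -1.132 to 0.059, H2ac22 from -1.77 to 1.07 and H2bc3 from -2.07 to 0.96. H3c1 lay from -0.72 to 0.77, H3c7 from -1.05 to 0.28, H3f3b from -0.17 to 0.35, H4c4 from -1.88 to 0.82, H4c14 from -0.53 to 0.83 and H4c16 from -1.31 to 0.041. Alas2 lay from -0.32 to 0.91, Chil3 from -0.023 to 0.382, Hbb-bs from -0.40 to 1.05, Mcm6 from -0.084 to 0.325 and Tut7 from -0.17 to 0.30. The cause was not tested. No paired analysis was possible because the labels give no pairing of ctrl and IR libraries. With scaled values, counting error of the low core histone rows is unknown.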
